A study of Mus musculus with 12 samples.

Results

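Replication-dependent histone genes encode the bulk of the histones that package newly copied DNA. They were taken here as every gene whose mouse symbol begins with Hist1h, Hist2h, Hist3h or Hist4h in the deposited count table, which gave 63 of its 25093 genes: 5 for H1, 17 for H2A, 18 for H2B, 11 for H3 and 12 for H4. The GENCODE vM21 annotation holds 70 such symbols, while the authors' table was made from vM19 and filtered on low values. Why the other symbols are absent was not tested, and what follows concerns those 63 and not every histone gene. The 52 members of the Hist1 group lie on chromosome 13 between positions 21715763 and 51203065 (GRCm38), the 7 of Hist2 on chromosome 3, the 3 of Hist3 on chromosome 11 and the single Hist4 gene on chromosome 6. 3 members (Hist1h2aj, Hist1h2al and Hist3h2bb-ps) are annotated as pseudogenes.

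Satellite cells, the muscle stem cells that lie under the basal lamina of the fiber, were sorted from hindlimb muscles of 3 to 4 month old mice. All mice carried a tamoxifen-inducible Cre at the Pax7 locus (Pax7-CreERT2/+) and the R26R-YFP reporter and had received tamoxifen. The control mice were Gli3+/+, and the others were Gli3fl/fl, in which Cre removes exon 8 of Gli3 in cells that use Pax7 (called Gli3 Δ/Δ below). Quiescent satellite cells (QSCs) came from uninjured muscle by a sort on α7-integrin and CD34, and activated satellite cells (ASCs) came from muscle taken 3 days after cardiotoxin by a sort on α7-integrin and VCAM1, with 3 libraries for each genotype in each state. A QSC library pooled 2 to 3 mice, while an ASC library came from 1 mouse. Values per library are given for the 6 QSC libraries, whose total counts ran from 39556784 to 65750131. ASC values per library were not analysed here. The names of their columns give the state but neither the sample nor the genotype, so the columns were left out of every step, a test of state alone included. The 2 states are compared only through a mean that the authors deposited over the 12 libraries of both states and genotypes.

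Cells make these histones mainly in S phase, when the doubled DNA needs a new set of nucleosomes. Each nucleosome wraps DNA around H2A, H2B, H3 and H4, and H1 binds the linker DNA where it enters and leaves. The messages are unusual in that most carry no poly(A) tail: they end shortly after a conserved stem-loop that is bound by SLBP, and U7 snRNP guides the cut. Some histone genes also make longer transcripts that pass the stem-loop and end at an ordinary polyadenylation signal, a form known from resting and differentiated cells. The libraries were made by selecting poly(A) RNA, so the counts bear on the tailed transcripts of each gene, and tailless histone mRNA was largely outside the measurement.

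The stem-loop is shown here because it separates these genes from nearly all others and because the place of the transcript end relative to it divides the members. A hairpin of the form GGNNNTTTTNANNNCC, with all 6 base pairs of its stem intact, was found in an annotated transcript of 40 of the 63 members (63.5%) and in 25 of 58733 other protein-coding transcripts (0.0426%). It was found for 3 of 5 H1, 10 of 17 H2A, 10 of 18 H2B, 7 of 11 H3 and 10 of 12 H4 genes. No match says only that these letters are not within the annotated transcript. In the lines below, from GENCODE transcripts on GRCm38, the hairpin is in capitals and up to 7 bases on each side are in lower case, all read 5′ to 3′ along the gene.
Hist1h1c (H1), chr13:23739505-23739534, plus strand: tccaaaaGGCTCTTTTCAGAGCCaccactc
Hist3h2a (H2A), chr11:58955165-58955194, plus strand: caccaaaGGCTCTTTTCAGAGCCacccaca
Hist2h2aa2 (H2A), chr3:96239777-96239806, minus strand: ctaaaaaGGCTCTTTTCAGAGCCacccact
Hist1h2ap (H2A), chr13:21833026-21833051, minus strand: aaaaaaaGGCTCTTTTCAGAGCCatc
Hist1h2be (H2B), chr13:23585524-23585553, minus strand: aaccaaaGGCTCTTTTCAGAGCCacccaac
Hist2h3c2 (H3), chr3:96238478-96238507, minus strand: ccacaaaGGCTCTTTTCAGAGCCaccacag
Hist1h3f (H3), chr13:23544925-23544954, plus strand: ccaaaacGGCTCTTTTAAGAGCCacctcca
Hist2h4 (H4), chr3:96262932-96262961, minus strand: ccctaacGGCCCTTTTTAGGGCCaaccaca
Hist4h4 (H4), chr6:136803991-136804020, minus strand: ccacaaaGGCCCTTTTCAGGGCCcacaaag
Hist1h4j (H4), chr13:21735430-21735459, plus strand: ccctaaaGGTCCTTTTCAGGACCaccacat
A single form, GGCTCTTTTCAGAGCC, was shared by 24 members from H1, H2A, H2B and H3. The H4 genes used other stems: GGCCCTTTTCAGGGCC in 6, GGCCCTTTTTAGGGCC in 2 and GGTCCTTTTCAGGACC in 2. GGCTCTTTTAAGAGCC was found in 5 H2B and H3 genes and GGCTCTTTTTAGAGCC in 1 H2A gene.

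Sequence before the start of the genes also differed by class. RefSeq promoters (GRCm38.p6, 250 bases before the start to 50 after) were matched for 54 of the 63 members. The letters CCAAT, the core of a common promoter element, occurred on either strand in 46 of the 54 (85.2%) against 37.9% of all 27025 promoters. All 5 H1, 14 H2A, 15 H2B and 9 H3 promoters held them, but 3 of 11 H4 promoters did. TATAAA was found in 30 of 54 (55.6%, against 14.2% of all promoters). The octamer ATTTGCAT, which POU factors bind, was found in 11 of 54 (20.4%, against 1.75%), in 6 H2A and 5 H2B promoters and in none of the 25 H1, H3 and H4 promoters. The 2 stretches below are the 250 bases before the start of Hist3h2a and of Hist4h4, chosen because both genes were read in every QSC library and their promoters differ in these letters. Capitals mark CCAAT and ATTTGCAT or their reverse complements (ATTGG and ATGCAAAT), of which the Hist4h4 stretch has none.
Hist3h2a, chr11:58954435-58954684, plus strand: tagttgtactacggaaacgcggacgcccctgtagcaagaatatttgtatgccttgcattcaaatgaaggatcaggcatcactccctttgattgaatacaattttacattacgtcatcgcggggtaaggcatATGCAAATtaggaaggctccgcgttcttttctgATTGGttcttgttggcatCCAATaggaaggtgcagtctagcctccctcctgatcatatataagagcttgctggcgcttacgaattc
Hist4h4, chr6:136804432-136804681, minus strand: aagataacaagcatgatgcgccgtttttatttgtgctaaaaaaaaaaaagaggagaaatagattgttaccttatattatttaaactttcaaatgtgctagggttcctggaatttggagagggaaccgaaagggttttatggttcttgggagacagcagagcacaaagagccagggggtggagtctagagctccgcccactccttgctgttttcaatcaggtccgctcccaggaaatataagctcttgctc

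In QSCs, histone transcripts were scarce and were carried by a handful of genes. The 63 members together took 47.7 ± 9.40 CPM (counts scaled to library size by TMM) in Gli3+/+ cells and 37.2 ± 4.74 CPM in Gli3 Δ/Δ cells (SD, n = 3 each), and the groups overlapped. Only 27 members had a mean of at least 0.1 CPM. The median member stood at 0.0604 CPM against 2.56 CPM for the median gene of the table. Hist3h2a held 19.8% of the counts of all members, Hist1h1c 18.4%, Hist1h2bc 13.0%, Hist2h2aa2 9.35% and Hist2h2be 8.45%. On the scale of CPM per kilobase of exon, which allows genes to be compared, the order was Hist2h2aa2 at 7.51, Hist1h1c at 5.02, Hist1h2bc at 4.76, Hist1h2aj at 4.53 and Hist3h2a at 3.91. Summed on that scale, H2A genes made up 49.98% of the level of the members, H2B 24.3%, H1 13.7%, H4 9.73% and H3 2.24%.

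**Figure D1:**
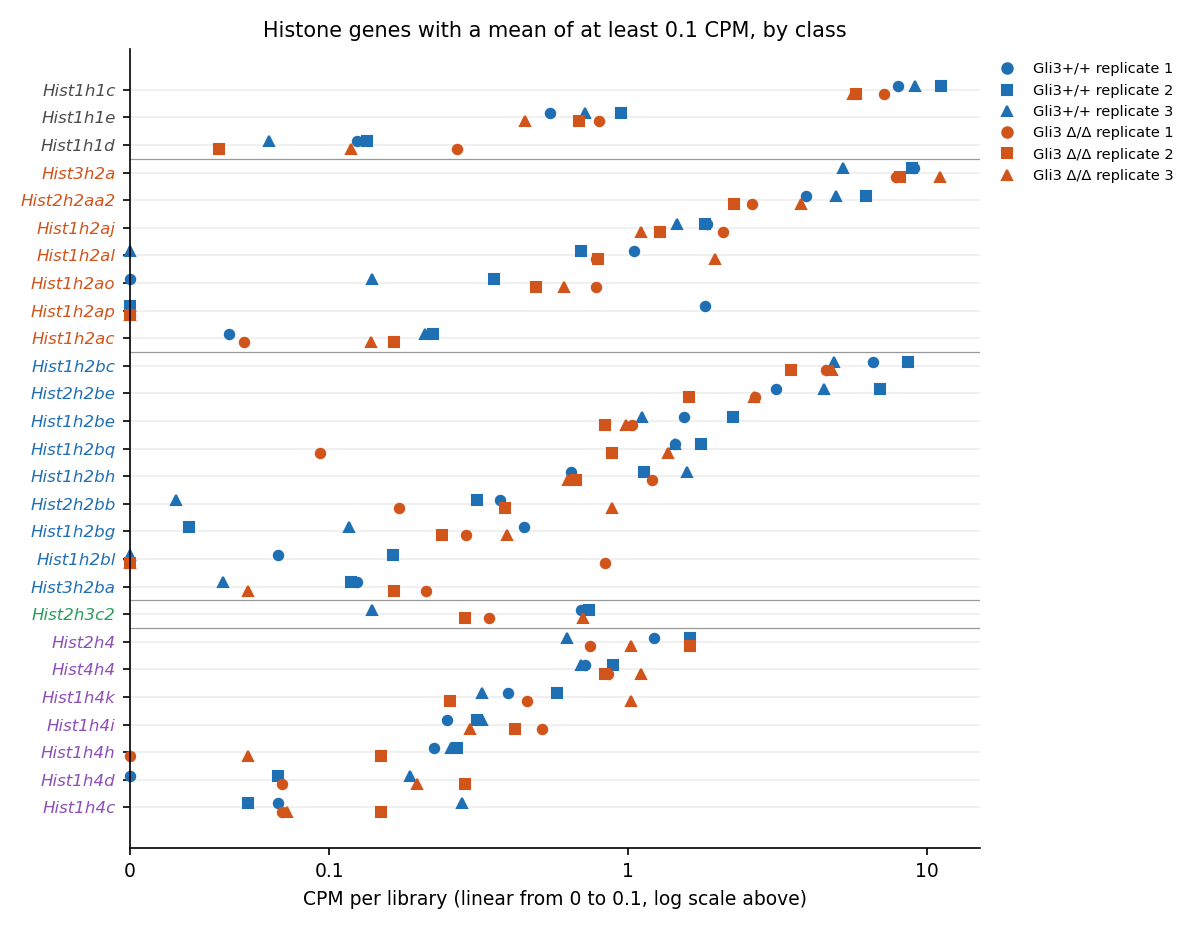
CPM in each of the 6 QSC libraries for the 27 histone genes with a mean of at least 0.1 CPM, grouped by class (label colors from top: H1, H2A, H2B, H3, H4), with color for genotype and shape for replicate. Hist1h1c, Hist3h2a and Hist1h2bc lie farthest to the right, and a single H3 gene, Hist2h3c2, reaches the level shown.

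9 members were at 0 in all 6 QSC libraries and 7 more had 1 to 3 counts over the 6. A count of 0 allows up to 3 counts over the 6 libraries. All 16 belong to Hist1. Reads of these genes are also hard to place: of all stretches of 75 bases in a member's transcripts, a median of 57.6% occurred in no other gene, 26 members had under 50% such stretches, and 57 shared sequence with another member. The values of close copies are therefore uncertain one by one, and the expected counts the authors deposited can move between them from library to library. In the other direction, Hist2h2be, Hist2h4, Hist1h1a and Hist1h1b were distinct from every other gene over 100% of their length, and Hist1h1c over 93.3%.

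The genotype comparison in QSCs asks whether deletion of Gli3 in uninjured muscle altered these genes. In edgeR's quasi-likelihood test, 0 of the 63 members passed the rule for a call, which was an adjusted p below 0.05 together with a change of 1.2 times or more. Of all genes, 0.351% passed it, 0.187% higher and 0.163% lower in Gli3 Δ/Δ cells. DESeq2 called 1 member, Hist1h2ap, and limma-voom called 0. At an unadjusted p under 0.05 the edgeR test held 6 members (of all genes, 7.11%), and the lowest adjusted p of a member was 0.446, for Hist2h2be. The 3 Gli3 Δ/Δ libraries all lay below the 3 Gli3+/+ libraries for 7 members (6.57% of all genes) and above them for 1 (6.39%). The median log2 fold change was -0.20 over the members and -0.03 over all genes, and the fold was negative for 33 members and positive for 21.

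**Figure D2:**
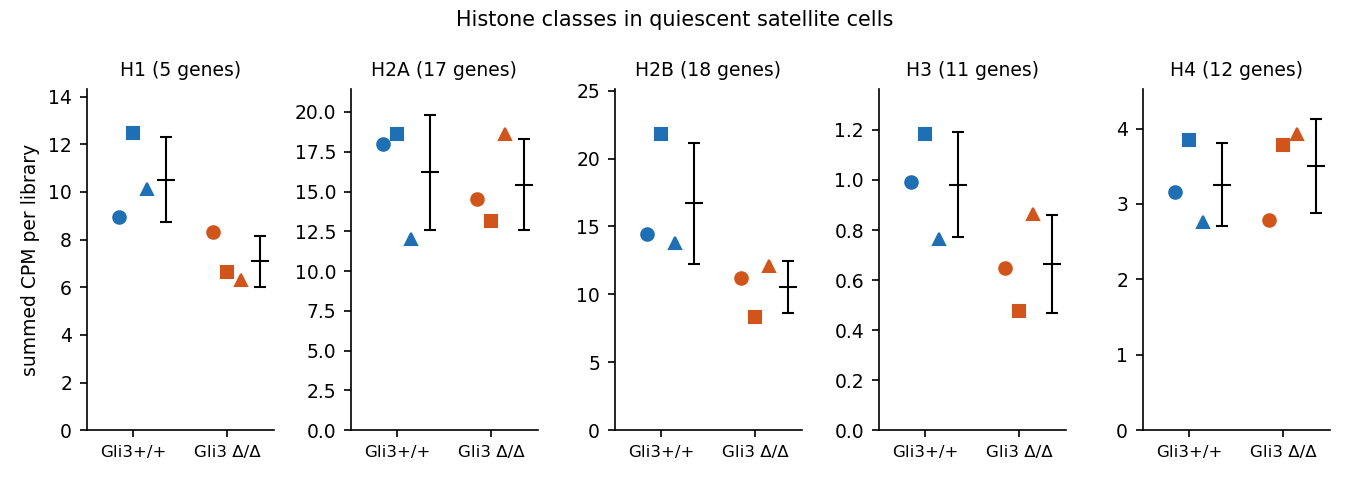
Summed CPM of each histone class in the 6 QSC libraries, with circles, squares and triangles for replicates 1, 2 and 3 and bars for the mean ± SD of 3 libraries. The Gli3 Δ/Δ points lie below every Gli3+/+ point for H1 and H2B, and the genotypes overlap for H2A, H3 and H4.

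The linker histone class, H1, was nearly a single gene in these cells. Hist1h1c, on chr13:23738808-23740367, held 89.0% of the counts of the 5 H1 genes. It was at 8.02, 11.1 and 9.14 CPM in the Gli3+/+ libraries (replicates 1 to 3 throughout) and at 7.19, 5.79 and 5.66 CPM in the Gli3 Δ/Δ libraries. Every Gli3 Δ/Δ library was lower than every Gli3+/+ library, with a log2 fold change of -0.60 ± 0.20 (SE), an unadjusted edgeR p of 0.0158 and an adjusted p of 0.505. Hist1h1e was at 0.546, 0.949 and 0.719 CPM against 0.801, 0.686 and 0.452 CPM. Hist1h1d was at 0.124, 0.133 and 0.0696 CPM against 0.267, 0.0448 and 0.118 CPM. The genotypes overlapped for both, as for Hist1h1b and Hist1h1a, neither of which reached 0.3 CPM in any library. The class sum was 10.5 ± 1.78 CPM in Gli3+/+ and 7.09 ± 1.08 CPM in Gli3 Δ/Δ cells (SD, n = 3 each), without overlap under TMM, plain totals or median-of-ratios size factors.

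H2A had the highest class sum over the 6 libraries, and the genotypes overlapped. It was 16.2 ± 3.62 CPM in Gli3+/+ and 15.4 ± 2.87 CPM in Gli3 Δ/Δ cells. Hist3h2a was at 9.09, 8.94 and 5.24 CPM against 7.88, 8.13 and 11.1 CPM, a log2 fold change of 0.22 ± 0.26 (SE; edgeR adjusted p = 0.925). Hist2h2aa2 went the other way, at 3.95, 6.24 and 4.97 CPM against 2.60, 2.25 and 3.80 CPM. Its groups did not overlap (log2 fold change -0.81 ± 0.28, edgeR adjusted p = 0.534), but 0% of its sequence was distinct from other genes. The pseudogene Hist1h2aj was at 1.84, 1.81 and 1.46 CPM against 2.08, 1.283 and 1.10 CPM, with overlap. Another pseudogene, Hist1h2al, was at 1.04, 0.697 and 0 CPM against 0.782, 0.791 and 1.95 CPM.

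Hist1h2ap and Hist1h2ao, H2A genes with little sequence of their own, had counts in different libraries. Hist1h2ap had 73 counts in Gli3+/+ replicate 1 and 0 in the 5 other libraries. Hist1h2ao had 0 in that same library and 24 and 6 counts in the other Gli3+/+ libraries, against 41, 33 and 31 counts in Gli3 Δ/Δ cells. Each had under 8% of its sequence to itself (7.35% and 6.90%), and so had Hist1h2aj (7.55%). Summed, the 3 genes stood at 3.65, 2.16 and 1.60 CPM in Gli3+/+ and 2.86, 1.78 and 1.71 CPM in Gli3 Δ/Δ libraries, with overlap. The single DESeq2 call among the members rests on the 73 counts of 1 library, and whether reads were assigned between copies was not tested.

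H2B was the class with the most negative fold between genotypes, a log2 ratio of the group means of -0.66. Its sum was 16.7 ± 4.47 CPM in Gli3+/+ and 10.5 ± 1.93 CPM in Gli3 Δ/Δ cells (SD, n = 3 each). The per-library sums were 14.5, 21.8 and 13.8 CPM against 11.2, 8.36 and 12.1 CPM, so that the groups did not overlap under any of the 3 scalings. Replicate 2 was the highest Gli3+/+ library, and without it the Gli3+/+ mean was 14.1 CPM. Hist1h2bc was at 6.58, 8.67 and 4.87 CPM against 4.60, 3.51 and 4.82 CPM. Hist2h2be, which shares no read-length stretch with another gene, was at 3.13, 6.98 and 4.52 CPM against 2.65, 1.60 and 2.64 CPM. Hist1h2be was at 1.54, 2.24 and 1.11 CPM against 1.03, 0.836 and 0.983 CPM. In all 3 genes, each Gli3 Δ/Δ library lay below each Gli3+/+ library. Hist2h2be had the strongest of these differences, a log2 fold change of -1.09 ± 0.35 (SE) with an unadjusted edgeR p of 0.0117 and an adjusted p of 0.446, and the adjusted p for the others was 0.657 (Hist1h2bc) and 0.702 (Hist1h2be). Hist2h2bb lay in the opposite direction with wide spread, at 0.372, 0.311 and 0.0232 CPM against 0.172, 0.388 and 0.885 CPM.

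H3 and H4 were the classes with the fewest counts, and neither separated by genotype. The H3 sum was 0.982 ± 0.210 CPM in Gli3+/+ and 0.664 ± 0.194 CPM in Gli3 Δ/Δ cells. Hist2h3c2, with 59.0% of the H3 counts, was at 0.695, 0.741 and 0.139 CPM against 0.343, 0.283 and 0.708 CPM. Hist1h3e and Hist1h3f did not pass 0.2 CPM in any library. The H4 sum was 3.26 ± 0.553 CPM in Gli3+/+ and 3.50 ± 0.622 CPM in Gli3 Δ/Δ cells. Hist2h4 was at 1.22, 1.62 and 0.627 CPM against 0.744, 1.61 and 1.02 CPM. Hist4h4 was at 0.720, 0.889 and 0.696 CPM against 0.859, 0.836 and 1.10 CPM. Hist1h4k was at 0.397, 0.578 and 0.325 CPM against 0.458, 0.254 and 1.02 CPM. The largest value of Hist4h4 and of Hist1h4k came from Gli3 Δ/Δ replicate 3.

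**Figure D3:**
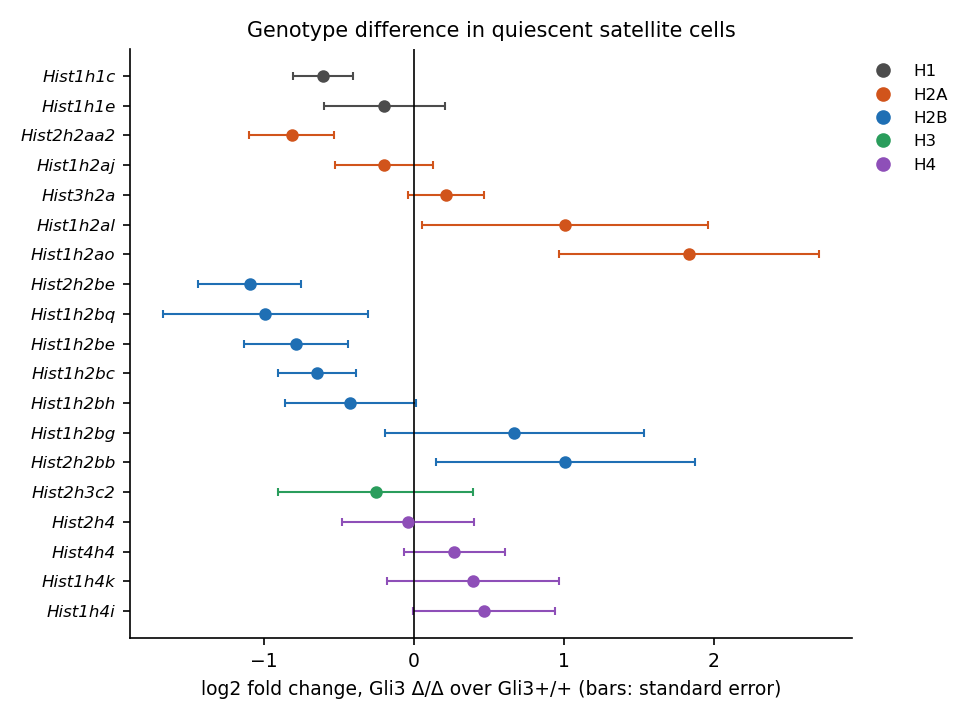
Log2 fold change between Gli3 Δ/Δ and Gli3+/+ QSCs with its standard error for the histone genes with a mean of at least 10 counts, colored by class. Hist1h2ap is left out because it had no count in Gli3 Δ/Δ cells. Hist1h1c, Hist2h2aa2, Hist2h2be, Hist1h2bq, Hist1h2be and Hist1h2bc lie to the left of 0 by more than their standard error, Hist1h2ao, Hist2h2bb and Hist1h2al to the right, and no member shown was called.

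Other values moved with genotype in the same libraries. Gli3 itself was at 11.2, 9.71 and 9.75 CPM in Gli3+/+ and 9.54, 10.5 and 6.25 CPM in Gli3 Δ/Δ libraries, with overlap. The count spans the whole gene, so it does not check the deletion of a single exon. Pax7, the defining marker of satellite cells, was between 798 and 1157 CPM in every library. The Schwann cell marker Mbp was at 29.4, 23.0 and 36.7 CPM in Gli3+/+ and 10.3, 19.5 and 17.3 CPM in Gli3 Δ/Δ libraries (edgeR adjusted p = 0.375), without overlap. Sox10, a transcription factor of the same cells, was at 4.27, 2.89 and 4.43 CPM in Gli3+/+ and 1.26, 1.82 and 2.26 CPM in Gli3 Δ/Δ libraries (edgeR adjusted p = 0.337), also without overlap. The S phase list had summed levels of 411, 368 and 402 CPM in Gli3+/+ and 364, 323 and 358 CPM in Gli3 Δ/Δ libraries, without overlap. Of its 26 genes, 11 had a positive and the others a negative log2 fold change, with a median of -0.0094. In every Gli3 Δ/Δ library 3 lay lower (6.57% of all genes) and 1 higher (6.39%). Pcna, the sliding clamp of replication, was at 69.4 ± 20.1 CPM in Gli3+/+ and 42.4 ± 4.75 CPM in Gli3 Δ/Δ cells (edgeR adjusted p = 0.400). Per library it was at 64.3, 52.3 and 91.6 CPM against 47.9, 39.0 and 40.5 CPM. Without Pcna the S phase sums of the genotypes overlap. Mcm6, a helicase subunit, was at 21.3 ± 1.29 CPM in Gli3+/+ and 10.6 ± 3.24 CPM in Gli3 Δ/Δ cells (edgeR adjusted p = 0.153). Gli3+/+ replicate 1 stood apart in red blood cell markers, whose summed level was 373 CPM there and 33.8 to 169 CPM in the other libraries, and without it the Gli3+/+ means of H1 and H2B were 11.3 and 17.8 CPM. The part of the Mbp, Sox10 and S phase differences in the H1 and H2B values was not tested. In a bulk library, fewer cells of a kind and less RNA per cell cannot be told apart. A QSC library was a separate pool of mice, so the p-values measure the spread between pools.

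The second comparison, between states, rests on the mean that the authors deposited over all 12 libraries, given in counts divided by size factors. Dividing it by the mean of the 6 QSC libraries on the same kind of scale gives a ratio that would be about 1 for a gene read equally in both states and about 0.5 for a gene read in QSCs alone. Over the 24536 genes with more than 3 counts in QSCs, its median was 0.914 and its first percentile 0.460. It has no replicate error and no test, and it mixes both genotypes. The QSC libraries are part of the 12, so the ratio lies nearer to 1 than ASCs over QSCs would. A gene silent in QSCs could enter the table only through the ASC libraries, so the share of high ratios among the members is a description of those that passed.

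By this ratio most histone genes were read more in the pool of both states than in QSCs. It was 2 or more for 28 of the 47 members with over 3 counts, with 14.2% of all such genes at 2 or more. 33 of the 47 would have passed the authors' filter, 5 reads in 2 samples, on QSC libraries alone, and 15 of these 33 were at 2 or more. The 14.2% of all genes is not limited in that way and is no like comparison for these 33. The other 13 members at 2 or more needed an ASC library to enter the table. It was under 1 for 9 members, with 57.0% of all such genes under 1. Summed over all members the authors' mean was 6335 against 2213 in QSCs, a ratio of 2.86, or 1.55 without Hist1h2aj, Hist1h2ao and Hist1h2ap. By class it was 4.68 for H2A, 4.31 for H3, 2.15 for H1, 1.92 for H4 and 1.35 for H2B. Without those 3 genes the H2A value was 1.11, and over the 4 H3 genes that passed the filter within QSCs that of H3 was 1.76. For the 9 members at 0 in QSCs the authors' mean ran from 4.69 (Hist1h2ab) to 36.1 (Hist1h2ai), or 9.58 to 73.7 times the level of 3 counts over the 6 libraries. These 9 entered the table only through ASC libraries, so a mean above the QSC level was fixed by the filter.

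**Figure D4:**
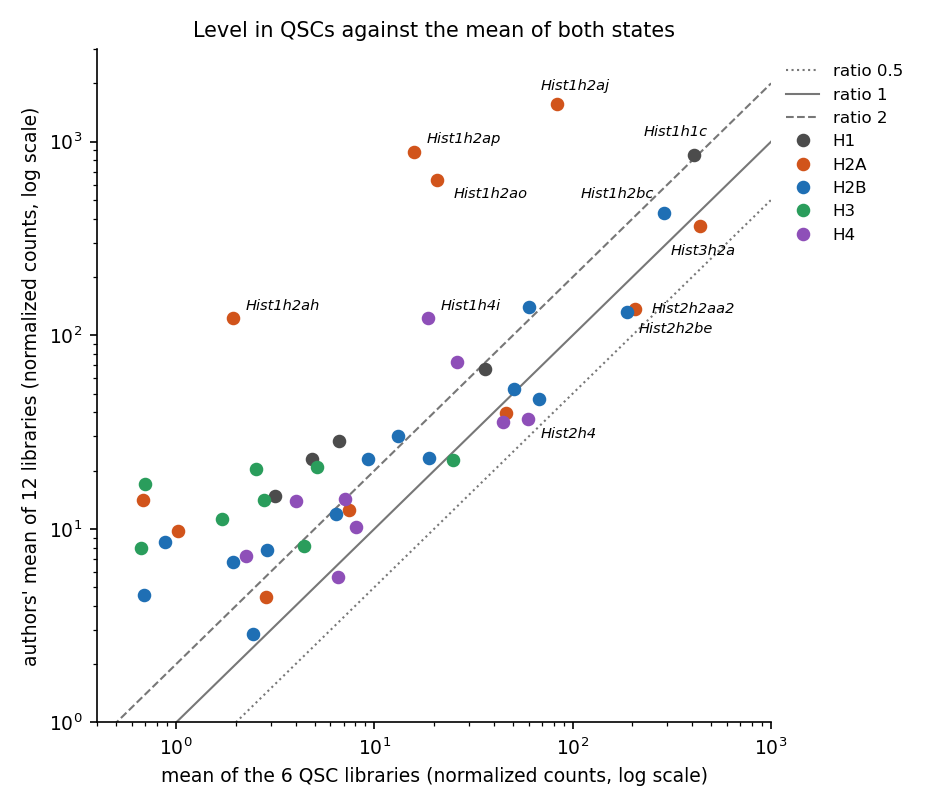
Mean of the 6 QSC libraries against the authors' mean of 12 libraries for the 47 histone genes with over 3 counts, both in normalized counts on log scales, colored by class. The lines mark ratios of 0.5, 1 and 2. Hist1h2aj, Hist1h2ao, Hist1h2ap and Hist1h2ah lie far above the ratio of 2, and Hist2h4, Hist2h2aa2 and Hist2h2be lie below the ratio of 1.

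The H2A value came from a small block of chromosome 13. Hist1h2aj, Hist1h2ao and Hist1h2ap together made up 79.8% of the authors' mean for H2A, 3081 normalized counts against 119 in QSCs, a ratio of 25.8. Taken one by one the ratio was 18.7 for Hist1h2aj, with counts in all 6 QSC libraries, and 30.9 for Hist1h2ao, with counts in 5. Those of Hist1h2ap (56.3) and Hist1h2ah (63.3) rest on 1 QSC library each, with 73 and 15 counts, and have no value without it. The sum is not free of other copies either: 58.6% of the 75-base stretches of Hist1h2aj, 93.1% of those of Hist1h2ao and 92.6% of those of Hist1h2ap occurred in the other two genes, but 92.4%, 73.9% and 73.5% also occurred in members outside the 3. Within QSCs, the same sum was highest in Gli3+/+ replicate 1 (3.65 CPM) and Gli3 Δ/Δ replicate 1 (2.86 CPM). Those libraries also had the highest summed level of the G2/M list, 45.2 and 25.6 CPM against 10.6 to 17.6 CPM in the others, and of macrophage markers, 26.8 and 16.9 CPM against 10.5 to 13.9 CPM. The S phase sum was also highest in replicate 1 within each genotype (411 and 364 CPM), but Gli3 Δ/Δ replicate 1 lay below all 3 Gli3+/+ libraries. The part of the G2/M, S phase and macrophage levels in the H2A values was not tested.

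The loci differed from each other in this ratio. The 52 Hist1 genes had a ratio of 4.54 for their sum, or 2.24 without Hist1h2aj, Hist1h2ao and Hist1h2ap, against 0.748 for the 7 Hist2 genes, 0.856 for the 3 Hist3 genes and 0.798 for Hist4h4. 27 of the 28 members at 2 or more were Hist1 genes, the exception being Hist2h3b at 8.09, whose 13 counts all came from Gli3+/+ replicate 3. Hist1 held 36 of the 47 members with a ratio, and some of its high ones entered the table only with ASC libraries. Over the 24 Hist1 members that passed the filter within QSC libraries, 15 were at 2 or more, with a median of 2.32. In all, 9 of the 47 ratios rest on 1 QSC library, and 14 moved by over 1.5 times or lost their value when a single library was left out. Of the 9 members under 1, 6 lay outside Hist1: Hist2h4 at 0.62, Hist2h2aa2 at 0.66, Hist2h2be at 0.71, Hist4h4 at 0.80, Hist3h2a at 0.84 and Hist2h3c2 at 0.90. The others were Hist1h2be at 0.70, Hist1h4c at 0.87 and Hist1h2al at 0.87. Among the genes with the most counts, Hist1h1c had a ratio of 2.09 and Hist1h2bc of 1.49.

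The place of the annotated transcript end went with the counts in QSCs, which are not scaled to transcript length. In 20 members an annotated transcript ran at least 100 bases past the hairpin shown above (151 to 4884 bases), as in Hist1h1c (840 bases), Hist3h2a (1643), Hist1h2be (1861), Hist2h4 (1257) and Hist4h4 (2445). These members took 54.5% of all member counts in QSCs (Hist3h2a 19.8% and Hist1h1c 18.4%), and 1 of them was at 0 in all libraries. In 20 others each annotated transcript that holds the hairpin ended within 3 to 74 bases of it. The mature tailless message is known to end there. Hist1h2bp, among the 20, has 2 annotated transcripts, and its gene extends to position 21789213, beyond its hairpin (21787916 to 21787945 with flanks). The 20 members took 11.97% of the counts, 6 of them were at 0, and Hist2h2aa2 alone, with 35 bases past the hairpin, had a mean over 1 CPM. The 23 members without a hairpin in an annotated transcript took the remaining 33.5%. Hist1h2bc (13.0%, transcript of 1156 bases) and Hist2h2be (8.45%, 2620 bases) led these 23. The median longest transcript was 1255 bases for long ends, 483.5 for short ends and 411 without a hairpin. Per kilobase of exon the median member stood at 0.243, 0.0199 and 0.0915 CPM in that order. The highest member on that scale, Hist2h2aa2 at 7.51, has a short end.

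How the ratio stood to the transcript end depended on which members were taken. Its median was 1.86 over the 18 members with long ends that had over 3 counts, 6.56 over the 10 with short ends and 3.48 over the 19 without a hairpin. Over the members that passed the authors' filter within QSC libraries, the medians were 1.86 (18 genes), 2.13 (6) and 2.34 (9), so that most of the gap came from genes that entered the table only with the help of ASC libraries. As sums the ratio was 1.47, 6.88 and 3.70. Without Hist1h2aj, Hist1h2ao and Hist1h2ap the last 2 were 1.29 and 1.80, and the sum for short ends then lay below that for long ends. That short-end sum was mostly Hist2h2aa2, with 207 of 228 normalized counts in QSCs. The medians without the 3 genes kept the other order, 3.08 for short ends and 1.86 for long ends. 6 of the 9 members under 1 had a long end, and 5 of the 9 had a polyadenylation signal (AATAAA or ATTAAA) within the last 50 bases, compared with 5 of the 28 at 2 or more. A longer transcript also gathers more reads per molecule and has more sequence of its own, with a median of 80.6% for long ends, 47.1% for short ends and 29.5% without a hairpin. The part of that difference in the ratio was not tested.

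**Figure D5:**
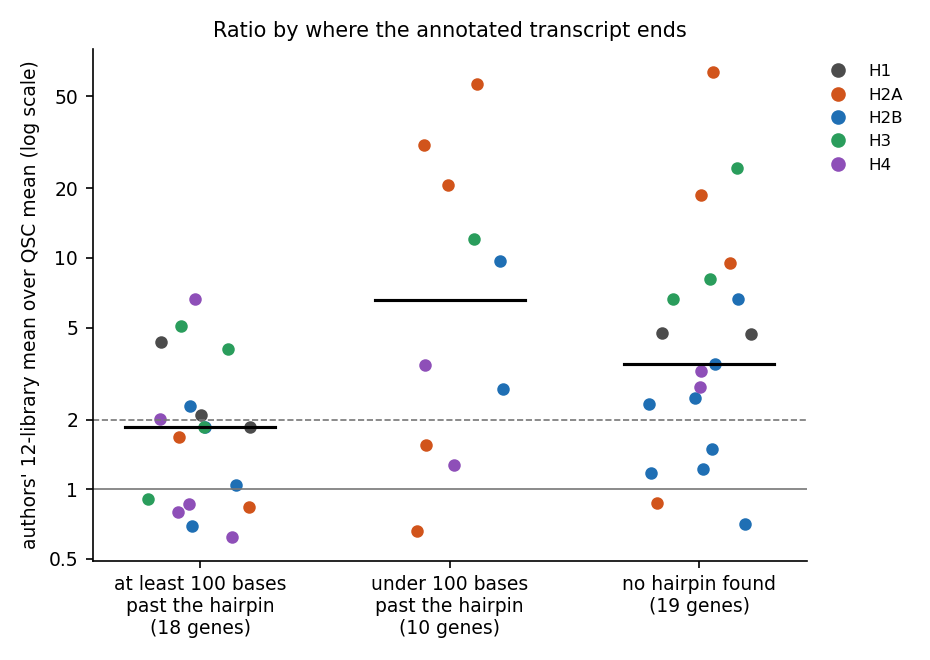
Ratio of the authors' 12-library mean to the QSC mean (log scale) for 47 histone genes, by whether an annotated transcript runs at least 100 bases past the hairpin, ends sooner, or holds none. Points are genes colored by class and black bars are medians (1.86, 6.56 and 3.48), and the lines mark ratios of 1 and 2. The short-end median falls to 2.13 over the 6 genes that passed the authors' filter within QSCs.

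Genes that act on histone mRNA or on histones themselves were examined beside them. None of the 19 genes of 3′ end formation, 8 of histone mRNA decay, 14 of the polyadenylation machinery, 12 replacement variants, 22 chaperones, 26 S phase genes or 13 G2/M genes was called between genotypes by edgeR in either direction. At an unadjusted p under 0.05 these lists held 0, 0, 0, 1, 0, 2 and 0 genes. DESeq2 called 1 replacement variant (Cenpa) and 1 S phase gene (Mcm6), both lower in Gli3 Δ/Δ cells, and limma-voom called 0 of these genes. Slbp, whose product binds the stem-loop, was at 33.5, 27.9 and 23.02 CPM in Gli3+/+ and 29.8, 26.4 and 27.3 CPM in Gli3 Δ/Δ libraries, and its ratio was 1.92. Npat, the coactivator of histone genes, was at 27.7 ± 0.250 CPM against 24.9 ± 0.802 CPM, with each Gli3 Δ/Δ library the lower (edgeR adjusted p = 0.895). The genes of 3′ end formation with the most counts, Srrt, Sympk and Snrpb, were at 236, 151 and 125 CPM over the 6 libraries.

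Of the histone mRNA decay list, Smg1, Xrn1 and Upf1 had the most counts, at 392, 136 and 101 CPM, and of the polyadenylation machinery, Papola, Cpsf7 and Pcf11, at 200, 152 and 150 CPM. The ratio of the authors' mean to the QSC mean was low for all 3 lists. Its medians were 1.29 (3′ end formation), 1.04 (decay) and 1.03 (polyadenylation), with 2, 0 and 0 genes at 2 or more. Among chaperones, which hand histones to DNA, Atrx, Nap1l1 and Rbbp7 had the most, at 355, 251 and 217 CPM. Their list had a median ratio of 1.45. Asf1b and Chaf1b, which serve histone deposition in cycling cells, had ratios of 26.9 and 16.2, whereas Hira, which deposits the variant H3.3 outside S phase, had 1.26.

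The replacement variants, most of which are made throughout the cell cycle from ordinary polyadenylated mRNA, took more counts in QSCs than the replication-dependent members. Their 12 genes summed to 1277 ± 73.7 CPM in Gli3+/+ and 1245 ± 89.8 CPM in Gli3 Δ/Δ cells, led by H3f3b, H3f3a and H1f0 at 659, 264 and 133 CPM. The sums are not per length, and poly(A) selection does not capture the 2 kinds of message alike. The median ratio of the list was 1.46, with 5 genes at 2 or more and 3 under 1. H3f3b and H1f0 had ratios of 0.99 and 0.78. H2afy2, H2afz, H2afx and H2afj had 5.24, 3.71, 3.12 and 2.34. Cenpa, the centromeric H3, had the highest ratio, 21.96. Cenpa was at 3.99 ± 0.427 CPM in Gli3+/+ and 2.08 ± 0.0882 CPM in Gli3 Δ/Δ cells, with every Gli3 Δ/Δ library the lower (edgeR adjusted p = 0.227).

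The proliferation lists gave the range against which the histone ratios can be read. The S phase genes had a median ratio of 6.18 (1.79 to 58.3) and 24 of 26 were at 2 or more. The 3 with the most counts in QSCs, Mcm7, Pcna and Rrm1, had ratios of 1.83, 2.06 and 4.22. The G2/M genes had a median ratio of 48.7 (27.0 to 128) and all 13 were at 2 or more, and Mki67, Top2a and Cdc20, with the most counts in QSCs, had 48.7, 77.4 and 27.0. Macrophage markers, which the sort should exclude, also had high ratios. All 7 were at 2 or more, with a median of 61.9 and a range of 5.003 to 141, while their summed level in QSC libraries was 10.5 to 26.8 CPM. Their part in the histone ratios was not tested. Pax7 and Calcr, markers of quiescent satellite cells, had ratios of 0.51 and 0.46, near the value for genes read in QSCs alone. They were at the low end of the 11 myogenic markers listed, whose median was 0.64 and whose range was 0.46 to 2.16 (Myod1). Of the 11, 8 were under 1.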

How the data were processed

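The authors deposited estimated counts per gene, made with Salmon (GRCm38, GENCODE vM19) and tximport and filtered to genes with at least 5 reads in 2 samples. In QSC libraries 49.2% of values were not whole, and they were rounded. 6 columns, whose names give the activated state but neither sample nor genotype, were not used, so the planned tests on ASC libraries were not run. The authors' comparison tables hold fold changes and p-values, which were not used, and a mean signal over 12 libraries in counts divided by size factors, used as the authors' value.

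QSC genotypes (3 against 3) were compared by edgeR 4.0.16 (quasi-likelihood, TMM, Benjamini-Hochberg over 25093 genes) in R 4.3.3, with DESeq2 1.42.0 and limma 3.58.1 as alternatives, each tested on simulated data. Members, lists and rules were chosen with earlier results of these data known. Genes named with values per library were the 3 of highest CPM in each class and the 5 of largest change with a mean of at least 10 counts, and in other lists the 3 of highest CPM. Others were named after their values were seen. Hairpins and stretches of 75 bases were read from GENCODE vM21 transcripts, and promoters from RefSeq. Some marker genes are not reported here.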

Additional observations from a re-analysis of the deposited data

How the results depend on the processing

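In QSCs 88 genes of the whole table were called, 384 with DESeq2 and 48 with at least 10 counts in every library. Leaving out each library in turn gave 58 to 103, the lowest without Gli3 Δ/Δ replicate 3. The count of members called was 0 in every setting but DESeq2, which called 1, Hist1h2ap (log2 fold change -21.63, adjusted p = 7.37e-06), whose fitted change depends on the handling of zeros. With limma-voom the sign reversed for Hist1h1d (-0.29) and Hist1h4k (-0.0062). When each library was left out, the log2 fold change crossed or reached 0 for 7 named genes, none of them called: Hist1h1e (-0.38 to 0.039), Hist1h1d (-0.44 to 0.80), Hist2h3c2 (-0.75 to 0.095), Hist1h3e (-0.17 to 1.37), Hist2h4 (-0.39 to 0.30), Hist1h4k (-0.30 to 0.76) and Hist1h2ap (-8.64 to 0.00). The cause was not tested, except that the counts of Hist1h2ap all lay in Gli3+/+ replicate 1. The class sums moved by less than 1 SD. Class-sum ratios of authors' to QSC mean, and the counts of members at 2 or more and under 1, were chosen after seeing the data. They kept within 1.5 times under the other scalings and when single libraries were left out, but 14 of the 47 ratios of single members did not. Without Hist1h2aj, Hist1h2ao and Hist1h2ap, also chosen after seeing the data, the ratio of sums was 1.55 for all members, 2.24 for Hist1, 1.11 for H2A, 1.29 for short ends and 1.80 without a hairpin, and the median was 1.61 for H2A and 3.08 for short ends. Over members with at least 5 reads in 2 QSC libraries the median was 1.55 for H2A, 2.95 for H3 and 2.13 for short ends, and the ratio of sums 1.76 for H3 and 3.30 for short ends. The replicate numbers did not pair the libraries: correlations of same-numbered deviations were -0.236, -0.0171 and -0.0477 over 19500 genes. With the replicate block 79 genes and 0 members were called. The low counts of most members limit what could be detected in any one of them.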
